A study of Mus musculus with 6 samples.

Results

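The nuclear genes of the mitochondrial respiratory chain were compared between regulatory T cells (Tregs) sorted from tumors of mice treated with an anti-PD-1 antibody and Tregs from untreated tumors. The members were chosen by name: rows of the deposited count table whose symbol begins with Ndufa, Ndufb, Ndufc, Ndufs, Ndufv, Uqcr, Cox4 to Cox8 or Atp5, together with Sdha, Sdhb, Sdhc, Sdhd, Cyc1 and Cycs. They number 94 of the 23420 genes in the table, of which 45 were placed with complex I, 4 with complex II, 9 with complex III, 18 with complex IV, 17 with complex V and 1 is cytochrome c. The name pattern also takes genes whose products are not subunits: 7 Ndufaf assembly factors, Atp5s and Atp5sl, and the supercomplex factor Cox7a2l. Atp5s and Atp5sl (named Dmac2 in GENCODE) were counted with complex V, which is no evidence that their products act there.

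Every mouse was of the BALB/c strain with a GFP reporter for Foxp3, the transcription factor that defines Tregs, and carried a tumor grown from 10000 injected T11 cells, a transplanted model of claudin-low breast cancer. The anti-PD-1 group (libraries 4, 5 and 6) received 200 µg of the antibody J43 intraperitoneally in 2 injections per week, and the untreated group (libraries 1, 2 and 3) received none. PD-1 is an inhibitory receptor of T cells. Tumors were taken at 150 mm2 and GFP-positive cells were sorted for total RNA sequencing. Whether each library came from its own mouse is not stated in the labels, so the spread behind every p-value is that between libraries and may be only technical.

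The respiratory chain passes electrons from NADH (through complex I) and succinate (through complex II) by way of ubiquinone to complex III, by way of cytochrome c to complex IV, and finally to oxygen. Complexes I, III and IV pump protons as they do so, and complex V, the ATP synthase, lets the protons return and makes ATP. Except for complex II, each complex also holds subunits encoded by mitochondrial DNA, which were not analysed here. Tregs are known to rely on oxidative phosphorylation more than conventional effector CD4 T cells do.

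Total counts were 5219249, 4766533 and 4836408 in the anti-PD-1 libraries, against 6686774, 5470816 and 5825110 in the untreated libraries. The members took 0.251%, 0.247% and 0.302% of the counts in the anti-PD-1 libraries, against 0.238%, 0.261% and 0.303% in the untreated libraries. Foxp3 stood between 461 and 562 CPM (a gene's counts relative to its library's total, scaled by TMM) in anti-PD-1 Tregs, against 437 to 460 CPM in untreated Tregs. The 6 Treg markers summed to between 5358 and 6089 CPM, against 6297 to 7069 CPM, so the sums did not overlap and were lower after anti-PD-1. The markers were split: log2 fold changes were 0.21 for Foxp3, 0.18 for Cd4 and 0.19 for Cd3e. They were -0.41 for Ctla4, -0.35 for Il2ra and -0.24 for Ikzf2. None of the 6 passed the test over all genes given below. Markers of CD8 T and NK cells (4 of 4 in the table) summed to 19.2 to 54.6 CPM in the anti-PD-1 libraries, against 17.0 to 32.3 CPM in the untreated ones, those of B cells (3 of 3) to between 3.09 and 9.10 against 2.88 to 5.18 CPM, and those of macrophages and monocytes (5 of 6) to between 14.0 and 29.2 against 13.0 to 28.1 CPM. Neutrophil markers (2 of 3) stood at up to 0.207 CPM in anti-PD-1 libraries and at 0 in untreated ones, dendritic cell markers (3 of 3) at 6.63 to 10.3 against 1.97 to 16.2 CPM, and the 1 erythroid marker in the table at 0. C1qa, S100a9, Krt8 and Hba-a1 had no count in any library. The list for tumor cells and fibroblasts summed to between 1034 and 1653 CPM against 1357 to 1767 CPM, mostly from Vim, which T cells also express.

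Added up by complex, the respiratory chain stood at about the same level in anti-PD-1 and untreated Tregs. The 94 members summed to 2480, 2432 and 3008 CPM in the anti-PD-1 libraries, against 2545, 2549 and 2976 CPM in the untreated libraries. The highest library of each group, anti-PD-1 6 and untreated 3, lay within a few percent of each other, and the groups overlapped. The means were 2640 ± 320 CPM in anti-PD-1 Tregs and 2690 ± 248 CPM in untreated Tregs (SD, n = 3 each), a ratio of 0.981. In bulk samples such as these, fewer cells of a type and less RNA per cell cannot be told apart.

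The same held for each complex taken alone. Complex I genes summed to 646 ± 80.1 CPM in anti-PD-1 Tregs and 689 ± 48.1 CPM in untreated Tregs (SD, n = 3 each). Complex II, the smallest, gave 206 ± 11.1 CPM in anti-PD-1 Tregs and 202 ± 22.3 CPM in untreated Tregs. Complex III gave 341 ± 30.0 CPM after anti-PD-1 and 343 ± 42.7 CPM in untreated Tregs. Complex V, which had the highest sum, gave 963 ± 165 CPM in anti-PD-1 Tregs and 982 ± 105 CPM in untreated Tregs. Complex IV summed to 441 ± 46.2 CPM after anti-PD-1 and 429 ± 76.0 CPM without it. The groups overlapped in every complex, and each of these differences was smaller than the SD within either group. Within the groups, anti-PD-1 6 and untreated 3 held the highest sums of complexes I, III, IV and V. These 2 libraries also had the highest share of counts in cytosolic ribosomal protein genes of their groups, 1.61% in anti-PD-1 6 (against 1.11% and 1.06% in the other anti-PD-1 libraries) and 1.36% in untreated 3 (against 0.929% and 1.14%). Whether that composition plays a part in the members' values was not tested.

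**Figure D1:**
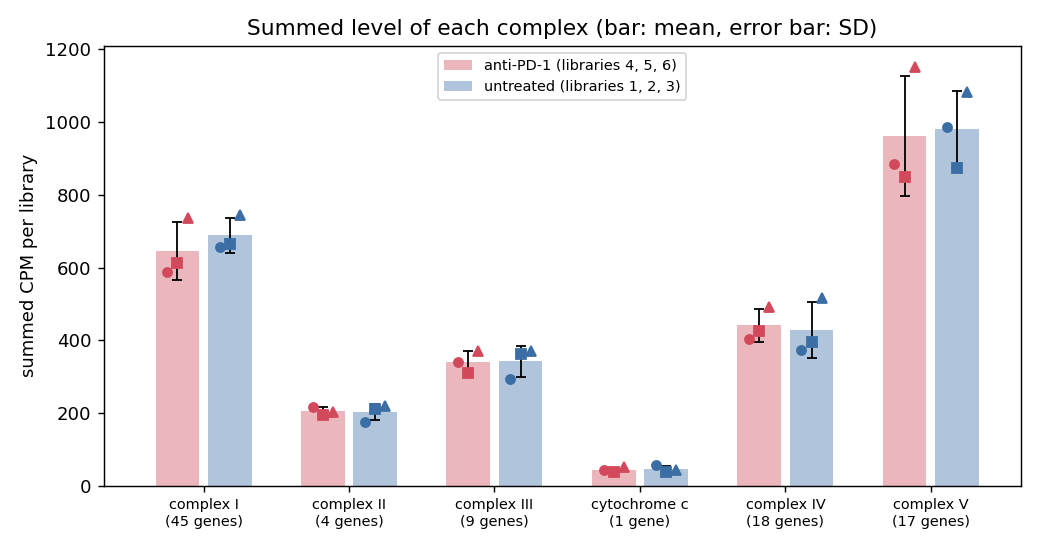
Summed CPM of the member genes of each complex (vertical axis, starting at 0) in anti-PD-1 Tregs (left of each pair) and untreated Tregs (right); points are libraries, bars means and error bars SDs over 3 libraries. In every complex the points of the groups overlap, and the triangles (anti-PD-1 6 and untreated 3) are the highest of their groups in complexes I, III, IV and V.

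Gene by gene, 85 of the 94 members had enough counts to be tested, among 10352 genes tested in all. None of the 85 passed edgeR's quasi-likelihood test at a Benjamini-Hochberg adjusted p of 0.05, a threshold that 3 genes passed over the whole table (0.029%, all 3 higher after anti-PD-1 and none of them a member). That count of 3 was 1 without anti-PD-1 5, 6 without untreated 2, 5 without untreated 3, 4 higher and 1 lower without anti-PD-1 6, and 12 higher and 7 lower without untreated 1. The smallest adjusted p among members in edgeR was 0.448. At an unadjusted p under 0.05 stood 5 members, all with lower values in anti-PD-1 Tregs (5.88% of 85, beside 8.3% of all genes tested, 4.23% on the higher and 4.07% on the lower side). DESeq2 and limma-voom called no member either, with 5 and 4 at an unadjusted p under 0.05, but DESeq2 gave no adjusted p to 60 of the 85. Over the whole table DESeq2 called 0.785% of the 4331 genes with an adjusted p, and limma-voom 0.116% of 10352. In edgeR the number of members at an unadjusted p under 0.05 was 2 without anti-PD-1 4, 2 without anti-PD-1 5 and 6 without anti-PD-1 6. It was 4 without untreated 1, 7 without untreated 2 and 7 without untreated 3. The share of all genes at that threshold was not taken for these refits, DESeq2 or limma-voom. Their counts are therefore not read as a result about the members.

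Taken over all tested members, 44 log2 fold changes lay above 0 and 41 below, with a median of 0.0096, beside a median of 0.0016 over all genes. The members' median distance from 0 was 0.25 on the log2 scale, beside 0.27 over all genes. Values of the groups did not overlap in 7 members (8.24%, beside 13.6% of all genes): 2, Cox6b1 and Atp5h, were higher in every anti-PD-1 library than in any untreated one (7.18% of all genes), and 5, Ndufa5, Ndufb6, Ndufb3, Ndufs1 and Ndufb9, were lower (6.44% of all genes). By complex, the median log2 fold change was 0.0096 for complex I (43 tested, 23 above 0), 0.06 for complex II (4 tested, 2 above), -0.03 for complex III (9 tested, 4 above), 0.12 for complex IV (11 tested, 6 above) and 0.04 for complex V (17 tested, 9 above). None of these medians kept its direction when a library was left out. They ranged from -0.07 (without anti-PD-1 6) to 0.11 (without anti-PD-1 4) for complex I, from -0.03 (without untreated 1) to 0.22 (without untreated 2) for complex II, and from -0.15 (without anti-PD-1 6) to 0.11 (without anti-PD-1 5) for complex III. They ranged from -0.02 (without untreated 1) to 0.18 (without untreated 3) for complex IV and from -0.14 (without anti-PD-1 6) to 0.09 (without anti-PD-1 5) for complex V. Over its 10 subunits without Cox7a2l, complex IV had a median of -0.00047.

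**Figure D2:**
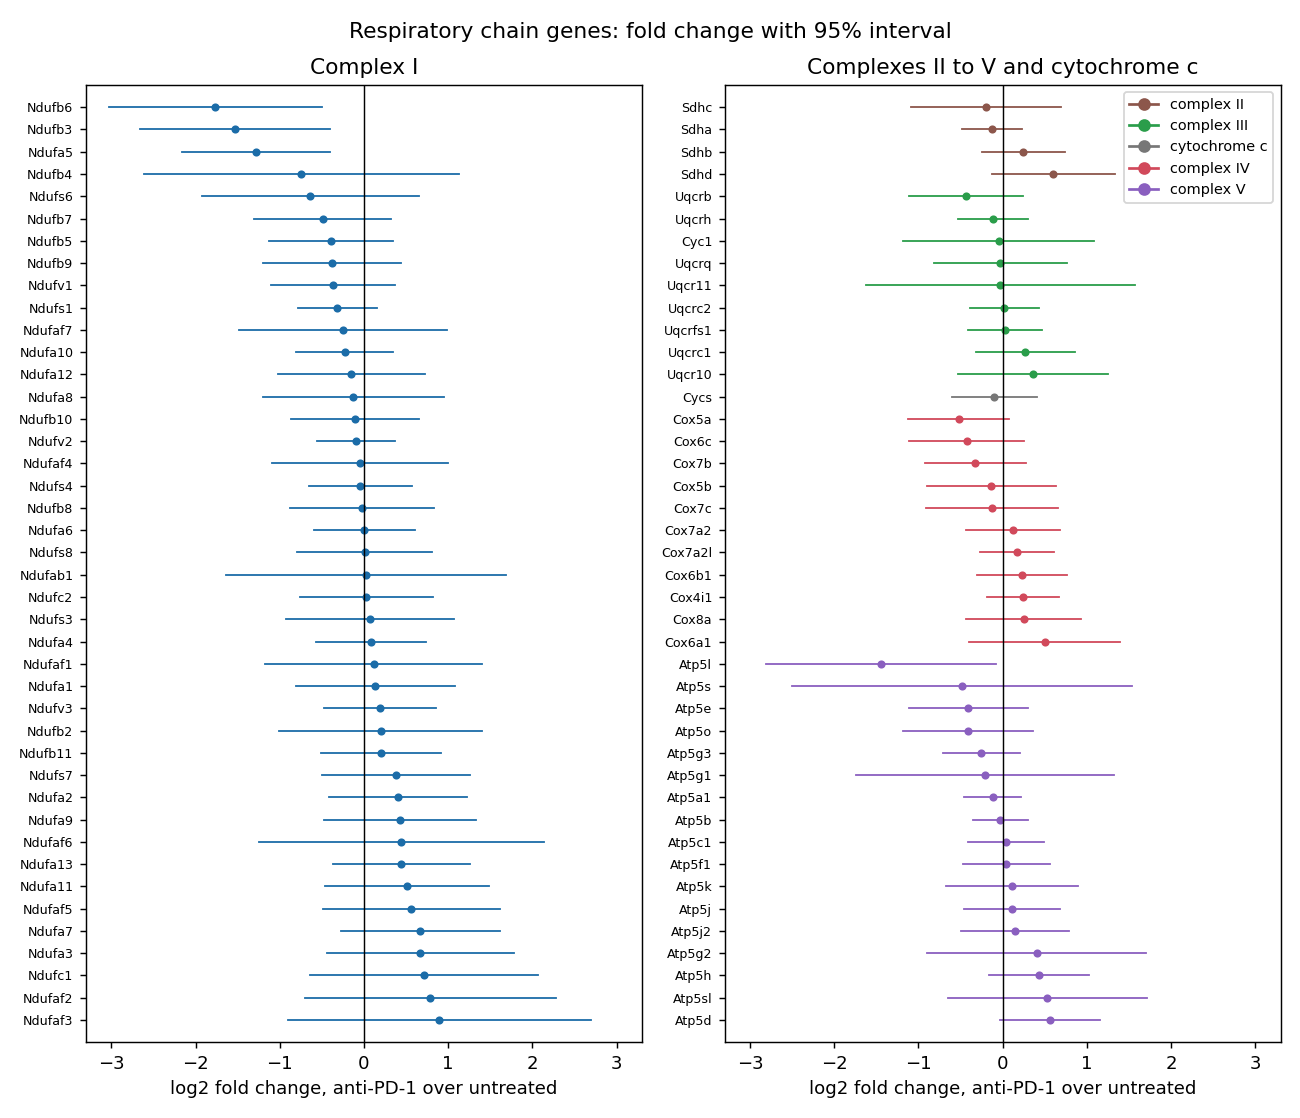
Log2 fold change of anti-PD-1 over untreated Tregs (horizontal axis) for 84 of the tested members, with 95% intervals from edgeR's fit (lines), complex I on the left and the others on the right. The points lie on both sides of 0 in each complex, and the drawn intervals that miss 0 are those of Ndufb6, Ndufb3, Ndufa5 and Atp5l.

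Complex I, the NADH dehydrogenase, has a peripheral arm that oxidises NADH and a membrane arm that pumps protons. Ndufa5, Ndufb6 and Ndufb3 had the smallest p of its members, all 3 with lower values in anti-PD-1 Tregs. Ndufa5, an accessory subunit of the peripheral arm, had 10.0, 3.52 and 11.7 CPM in anti-PD-1 libraries, against 24.3, 19.1 and 18.2 CPM in untreated libraries. Every anti-PD-1 library was below every untreated one, and anti-PD-1 5 was the lowest. Its log2 fold change was -1.28 ± 0.43 (SE, 95% interval -2.16 to -0.40), with an edgeR adjusted p of 0.448 that ranged from 0.262 to 0.934 over the 9 alternatives run in edgeR. Ndufb6, an accessory subunit of the membrane arm, had 1.52, 0.828 and 8.04 CPM in anti-PD-1 libraries, against 12.5, 10.4 and 12.0 CPM in untreated libraries. The untreated libraries were close together, and anti-PD-1 6 stood well above the other anti-PD-1 libraries while staying below all untreated ones. The log2 fold change of Ndufb6 was -1.76 ± 0.61 (SE), and it was -3.27 without anti-PD-1 6 and -1.32 without anti-PD-1 5. EdgeR's adjusted p for Ndufb6 was 0.461, and 31.6% of its 50-base stretches also occur in transcripts of Smim27.

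Ndufb3, a small membrane arm subunit, had 1.14, 4.76 and 9.48 CPM in anti-PD-1 libraries, against 19.4, 10.5 and 13.3 CPM in untreated libraries. The groups did not overlap, but the highest anti-PD-1 library came close to the lowest untreated one. Its log2 fold change was -1.53 with a 95% interval from -2.66 to -0.40 (edgeR adjusted p = 0.470), and it was -2.33 without anti-PD-1 6 and -1.03 without anti-PD-1 4.

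The core subunits of complex I, which carry the flavin and iron-sulfur centers, included Ndufs1 at 47.0, 43.0 and 40.8 CPM in anti-PD-1 libraries, against 53.5, 56.1 and 53.5 CPM in untreated libraries. The groups did not overlap, with a small difference: its log2 fold change was -0.31 with an interval from -0.78 to 0.15. Ndufv2, an iron-sulfur subunit at the NADH end, averaged 51.1 ± 1.65 CPM in anti-PD-1 Tregs and 54.6 ± 7.12 CPM in untreated Tregs (SD, n = 3 each). Its log2 fold change of -0.09 had an interval from -0.55 to 0.37, which lies inside a 1.5-fold change in either direction. Over the 7 core subunits, 3 log2 fold changes lay above 0 and 4 below, with a median of -0.09.

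The Ndufb genes, whose products lie in the membrane arm, gave a median log2 fold change of -0.39 over 10 genes, with 8 below 0 and 2 (Ndufb2 and Ndufb11) above. That median ranged from -0.57 without anti-PD-1 6 to -0.18 without anti-PD-1 5. None of the 10 passed in edgeR, and 2 (Ndufb6 and Ndufb3, both lower) stood at an unadjusted p under 0.05, beside 8.3% of all genes tested (4.07% on the lower side). The 18 tested accessory subunits outside the Ndufb genes gave 12 values above 0 and 6 below, with a median of 0.08. The 7 assembly factors gave a median of 0.44 with 5 above 0, but all 7 averaged under 10 CPM and none had an interval inside a 2-fold change. The log2 fold changes of complex I members ran from -1.76 for Ndufb6 to 0.90 for Ndufaf3, an assembly factor with 1.71, 3.10 and 5.77 CPM in anti-PD-1 libraries, against 0, 2.68 and 3.04 CPM in untreated libraries.

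**Figure D3:**
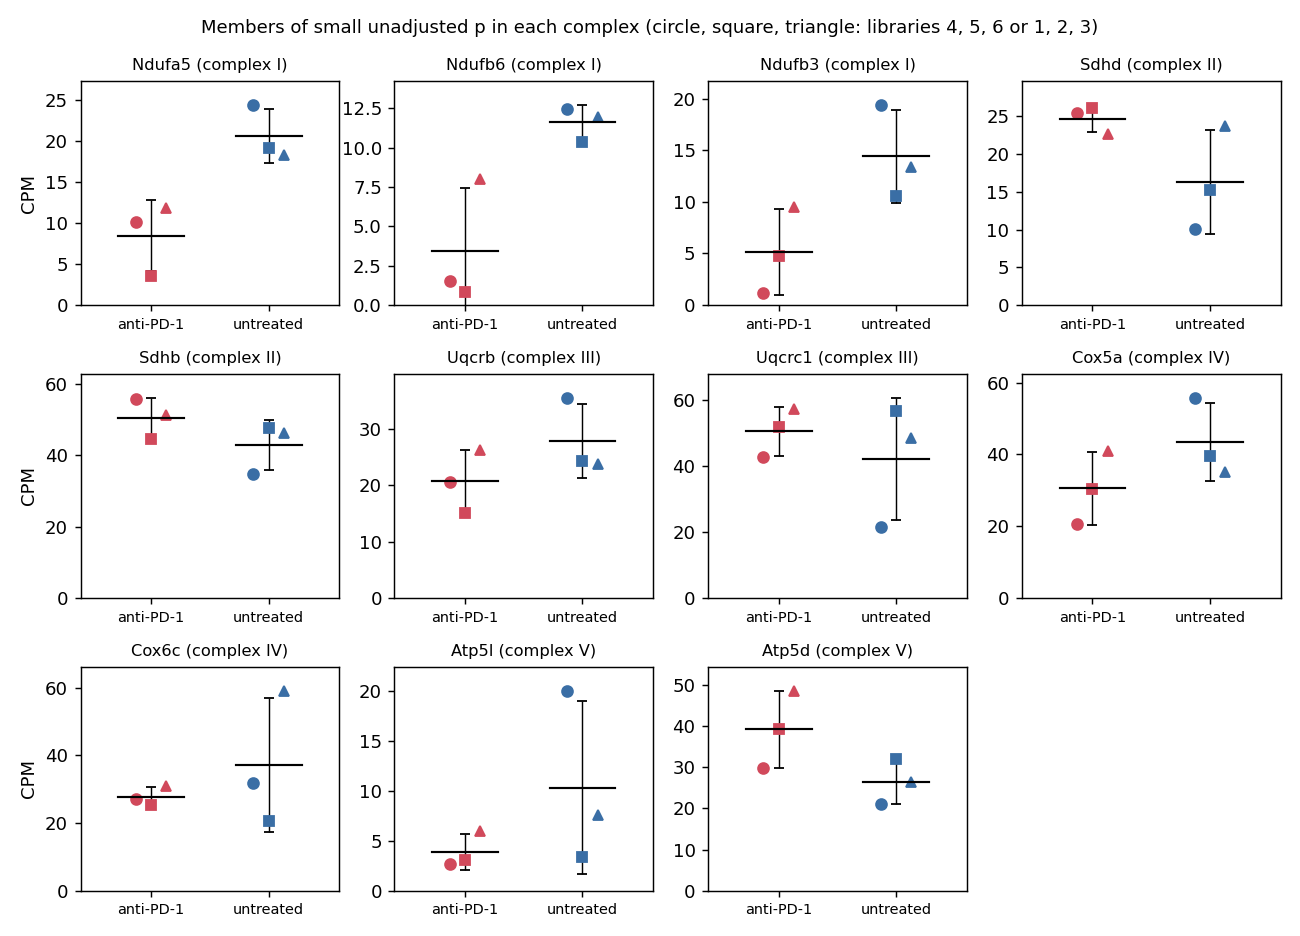
CPM (vertical axes, starting at 0) of 11 members with small unadjusted p in each complex, anti-PD-1 libraries on the left and untreated libraries on the right of each panel; points are libraries, horizontal lines means and error bars SDs (n = 3 each). The groups are apart in the panels of Ndufa5, Ndufb6 and Ndufb3 and overlap in the other 8.

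Complex II, succinate dehydrogenase, also belongs to the citric acid cycle. Sdha, its flavoprotein, was the most highly counted member of the complex, with 117 ± 10.3 CPM in anti-PD-1 Tregs and 128 ± 6.61 CPM in untreated Tregs (SD, n = 3 each), and its log2 fold change of -0.12 had an interval from -0.48 to 0.24. Sdhd, which anchors the enzyme in the membrane, had 25.4, 26.1 and 22.7 CPM in anti-PD-1 libraries, against 10.1, 15.2 and 23.8 CPM in untreated libraries. Untreated 1 and 2 were below all anti-PD-1 libraries and untreated 3 was not. The log2 fold change of Sdhd was 0.60 ± 0.35 (SE, edgeR adjusted p = 0.686), and it was 0.33 without untreated 1 and 0.98 without untreated 3. Sdhb, the iron-sulfur subunit, had 55.7, 44.7 and 51.3 CPM in anti-PD-1 libraries, against 34.7, 47.7 and 46.2 CPM in untreated libraries. The groups overlapped, and the log2 fold change was 0.25 ± 0.24 (SE). The second anchor subunit, Sdhc, stood at -0.19, so the anchors lay on opposite sides of 0.

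Complex III moves electrons from ubiquinol to cytochrome c. Uqcrb, a ubiquinone-binding subunit, had 20.7, 15.1 and 26.4 CPM in anti-PD-1 libraries, against 35.5, 24.3 and 23.8 CPM in untreated libraries. The groups overlapped, and the log2 fold change was -0.43 ± 0.33 (SE, edgeR adjusted p = 0.758). Uqcrc1, a core protein, had 42.7, 51.9 and 57.3 CPM in anti-PD-1 libraries, against 21.5, 56.8 and 48.4 CPM in untreated libraries. Only untreated 1 lay outside the range of the rest, and the log2 fold change of 0.27 became -0.06 without that library. The catalytic Rieske protein Uqcrfs1 (log2 fold change 0.03, interval -0.41 to 0.47), the core protein Uqcrc2 (0.02, -0.39 to 0.43) and the hinge protein Uqcrh (-0.11, -0.53 to 0.30) all had intervals inside a 1.5-fold change. Cyc1, the cytochrome c1 subunit, had few counts, with 8.43 ± 4.13 CPM in anti-PD-1 Tregs and 8.85 ± 5.24 CPM in untreated Tregs (SD, n = 3 each). Cycs, cytochrome c itself, which carries electrons between complexes III and IV, had 43.0, 36.8 and 50.5 CPM in anti-PD-1 libraries, against 56.2, 38.4 and 44.4 CPM in untreated libraries. The groups overlapped, and its log2 fold change was -0.10 ± 0.25 (SE).

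Complex IV, cytochrome c oxidase, hands the electrons to oxygen. Cox5a, a nuclear subunit on its matrix side, had 20.5, 30.4 and 40.8 CPM in anti-PD-1 libraries, against 55.7, 39.5 and 35.1 CPM in untreated libraries. Anti-PD-1 6 exceeded 2 untreated libraries, and the log2 fold change was -0.52 ± 0.29 (SE, edgeR adjusted p = 0.660). Cox6c, a membrane subunit, had 27.1, 25.2 and 30.9 CPM in anti-PD-1 libraries, against 31.7, 20.7 and 59.0 CPM in untreated libraries. The anti-PD-1 libraries lay inside the untreated range, and the log2 fold change of -0.43 became 0.07 without untreated 3, the single high library. Cox4i1, the most highly counted subunit after the supercomplex factor Cox7a2l, averaged 76.0 ± 7.36 CPM in anti-PD-1 Tregs and 64.1 ± 10.1 CPM in untreated Tregs (SD, n = 3 each), with a log2 fold change of 0.24 and an interval from -0.18 to 0.67. Cox6b1, which caps the cytochrome c side of the enzyme, had 37.2, 41.4 and 33.6 CPM in anti-PD-1 libraries, against 32.3, 29.7 and 33.4 CPM in untreated libraries. The groups just failed to overlap, and its log2 fold change was 0.23 ± 0.26 (SE).

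Complex V gave the only member outside complex I with an unadjusted p under 0.05. This was Atp5l, subunit g of the membrane part, with 2.65, 3.10 and 5.98 CPM in anti-PD-1 libraries, against 20.01, 3.40 and 7.59 CPM in untreated libraries. The difference rested on untreated 1: the log2 fold change of Atp5l was -1.44 ± 0.66 (SE, edgeR adjusted p = 0.572) and -0.52 without that library. Atp5d, subunit delta of the F1 part of the enzyme, had 29.8, 39.3 and 48.4 CPM in anti-PD-1 libraries, against 21.1, 32.0 and 26.3 CPM in untreated libraries. Anti-PD-1 4 lay below untreated 2, and the log2 fold change was 0.57 ± 0.29 (SE, edgeR adjusted p = 0.625). Atp5h, subunit d of the peripheral stalk, had 34.5, 28.6 and 34.8 CPM in anti-PD-1 libraries, against 20.3, 27.7 and 25.1 CPM in untreated libraries. The groups did not overlap by a narrow margin, and its log2 fold change was 0.43 ± 0.29 (SE).

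The subunits that form the catalytic hexamer of complex V, alpha (Atp5a1) and beta (Atp5b), were the most highly counted members of all and the most precisely measured. Atp5b had 277, 261 and 338 CPM in anti-PD-1 libraries, against 318, 260 and 313 CPM in untreated libraries. Its log2 fold change was -0.03 with an interval from -0.35 to 0.30. Atp5a1 averaged 245 ± 49.4 CPM in anti-PD-1 Tregs and 265 ± 22.7 CPM in untreated Tregs (SD, n = 3 each), with a log2 fold change of -0.12 and an interval from -0.46 to 0.22. For both genes a 1.5-fold difference in either direction lies outside the interval, as it does for 7 other members (Ndufv2, Sdha, Uqcrfs1, Uqcrc2, Uqcrh, Atp5c1 and Atp5f1).

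Levels between genes were compared per kilobase of the gene length in the table. Uqcrh, the hinge protein of complex III, stood highest at 168 ± 27.6 CPM per kb (SD over 6 libraries), followed by Atp5b at 157 ± 17.5, which did not differ beyond that spread. Then came Cox7a2l, Atp5a1 and Cox4i1 at 105, 105 and 103 CPM per kb, also within their spread of each other, and Atp5g3 at 82.7 CPM per kb. The highest complex I genes were Ndufa4 (60.02 CPM per kb), which is now counted by many as a complex IV subunit, Ndufa6 (56.9) and Ndufv2 (35.9). In complex II, Sdhb and Sdha stood at 43.6 ± 6.60 and 42.8 ± 3.36 CPM per kb, while Sdhd stood at 16.0 ± 5.01. Uqcrb followed Uqcrh in complex III at 48.3 CPM per kb and Cox6b1 was the next complex IV subunit after Cox4i1 at 68.5. Cytochrome c (Cycs, 14.7 ± 2.40) and cytochrome c1 (Cyc1, 7.24 ± 3.54) stood below the highest subunits of the complexes they serve.

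**Figure D4:**
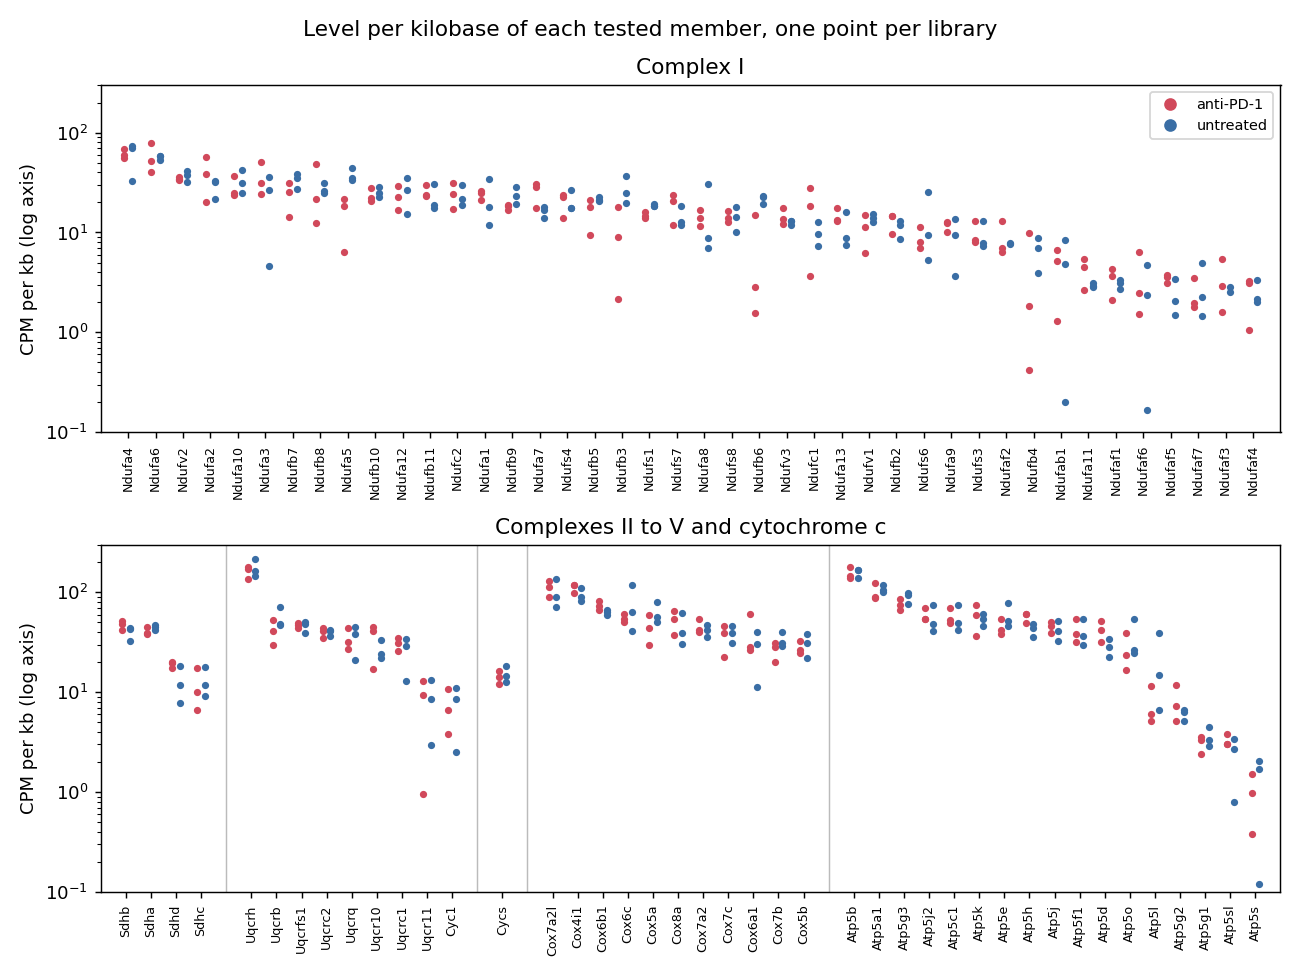
CPM per kb (vertical axes, logarithmic) of 84 of the tested members, 1 point per library, anti-PD-1 libraries left of untreated libraries at each gene, genes ordered by mean level within each complex (from left to right below: complexes II, III, cytochrome c, IV and V). The order runs from Uqcrh (168 CPM per kb on average) to Atp5s (1.13); libraries without a count, such as untreated 1 for Ndufaf3, have no point on the logarithmic axis.

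Several subunits exist as a widely expressed isoform and a paralog restricted to tissues such as heart, muscle, lung or testis, and the Tregs carried the widely expressed one in each case. Cox4i2, Cox6b2, Cox7b2, Cox8b and Cox8c had no count in any of the 6 libraries. Against a floor of 3 counts over all libraries, which covers counting error only, Cox4i1 was at least 810-fold higher per kb than Cox4i2, Cox6b1 at least 449-fold higher than Cox6b2 and Cox7b at least 179-fold higher than Cox7b2. Cox8a was at least 187-fold higher than Cox8b and at least 245-fold higher than Cox8c on the same scale. Ndufa4l2, a hypoxia-induced paralog of Ndufa4, had 1 count (in an untreated library), beside 957 counts of Ndufa4. Cox6a2 had 2 counts beside 557 of Cox6a1, and Cox7a1 had 8 counts (2 in anti-PD-1 and 6 in untreated libraries) beside 1074 of Cox7a2. The widely expressed partners themselves had log2 fold changes from -0.33 (Cox7b) to 0.50 (Cox6a1), with Cox8a at 0.25 and Cox7a2 at 0.12.

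The c ring of complex V, the rotor that protons turn, is built of 1 mature protein encoded by 3 genes. Atp5g3 supplied 87.3 ± 2.25% of their summed CPM per kb in anti-PD-1 Tregs and 90.2 ± 2.23% in untreated Tregs (SD, n = 3 each), a difference of about the spread between libraries. Atp5g2 made up 9.15 ± 2.79% in anti-PD-1 Tregs and 6.16 ± 1.03% in untreated Tregs, and Atp5g1 3.58 ± 0.615% and 3.68 ± 1.26%. No library had Atp5g3 below 85.1%. Of the 50-base stretches in their transcripts, 38.3% for Atp5g2, 11.1% for Atp5g1 and 0% for Atp5g3 also occur in other genes. Whether this affects the shares of the 3 genes was not tested.

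The remaining untested member, Ndufs5, an accessory subunit of complex I, had no count in any library. In the deposited table, 95.1% of the exonic bases of Ndufs5 also lie in the row BC002163 on the same strand, and no other member overlaps another row in this way. The row BC002163 had 11.6, 8.28 and 8.24 CPM in anti-PD-1 libraries, against 6.56, 5.004 and 8.77 CPM in untreated libraries, which overlap. The counting command recorded in the file sets no option to count fragments that fall in more than 1 row, and featureCounts leaves such fragments out by default. Whether fragments of Ndufs5 were left out in this way was not tested, and its 0 is not read as absence. BC002163 is also the name of a processed pseudogene on chromosome 16 (GRCm38 chr16:42955631-42955949). Its longest identical run with the coding sequence of Ndufs5 (GENCODE M21, gene at chr4:123712710-123718202, minus strand) is 214 of 321 bases. The same kind of copy exists for Atp5l (gene at chr9:44912557-44920742, minus strand), where the pseudogene Gm10221 (chr5:24581554-24581862) holds 309 of the 312 coding bases in 1 run. The last 240 bases of each coding sequence are shown because they bear on what a count of these genes can mean, with the part shared with the pseudogene in capitals.
Ndufs5: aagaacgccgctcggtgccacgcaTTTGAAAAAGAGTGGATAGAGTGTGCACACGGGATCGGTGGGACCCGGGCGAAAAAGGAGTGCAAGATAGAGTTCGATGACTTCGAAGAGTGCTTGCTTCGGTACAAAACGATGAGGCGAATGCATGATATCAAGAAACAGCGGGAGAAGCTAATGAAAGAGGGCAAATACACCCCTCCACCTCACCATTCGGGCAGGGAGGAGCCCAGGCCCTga
Atp5l: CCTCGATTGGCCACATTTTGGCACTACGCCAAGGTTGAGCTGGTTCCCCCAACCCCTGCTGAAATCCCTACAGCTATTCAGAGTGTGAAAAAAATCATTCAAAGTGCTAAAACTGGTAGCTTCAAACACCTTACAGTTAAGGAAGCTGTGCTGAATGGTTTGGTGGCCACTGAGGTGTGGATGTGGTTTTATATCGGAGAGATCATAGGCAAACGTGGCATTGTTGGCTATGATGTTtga

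Of all 50-base stretches in the transcripts of Atp5l, 84.8% occur in at least 1 of 14 other genes, the highest share among the members named for their p, so its counts are uncertain. Cox5a (32.0%), Ndufb6 (31.6%) and Uqcrb (43.4%) also share stretches with other genes, while Ndufa5, Sdhb, Sdhd, Uqcrc1 and Atp5d share none. Stretches were matched on either strand, so transcripts that overlap a gene on the opposite strand are included. For Cox5a, 29.2% of the stretches occur in a noncoding RNA, Gm26631. Whether the sharing affects the counts of Cox5a, Ndufb6 and Uqcrb was not tested. The 41 tested members with less than 1% shared had a median log2 fold change of 0.03, the 27 with 1 to 20% had 0.04, and the 17 with more than 20% had -0.13.

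How well a member was measured followed its level. The 95% intervals of 36 of the 85 members (42.4%, beside 49.2% of all genes tested) lay inside a 2-fold change in both directions. Among the 12 members above 50 CPM all 12 did so, with a median half-width of 0.43 on the log2 scale, whereas among the 23 members under 10 CPM none did, with a median half-width of 1.29. Between these, 16 of 25 members at 20 to 50 CPM and 8 of 25 at 10 to 20 CPM did so. Counts were simulated for this comparison over 10352 genes, with 50 genes altered at each fold size. There edgeR recovered 8% at 1.5-fold, 36% at 2-fold, 68% at 4-fold and 94% at 8-fold, with 7 false calls. An adjusted p depends on how many genes change, and the measured libraries gave 3 calls. These shares may therefore be too high for the members.

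**Figure D5:**
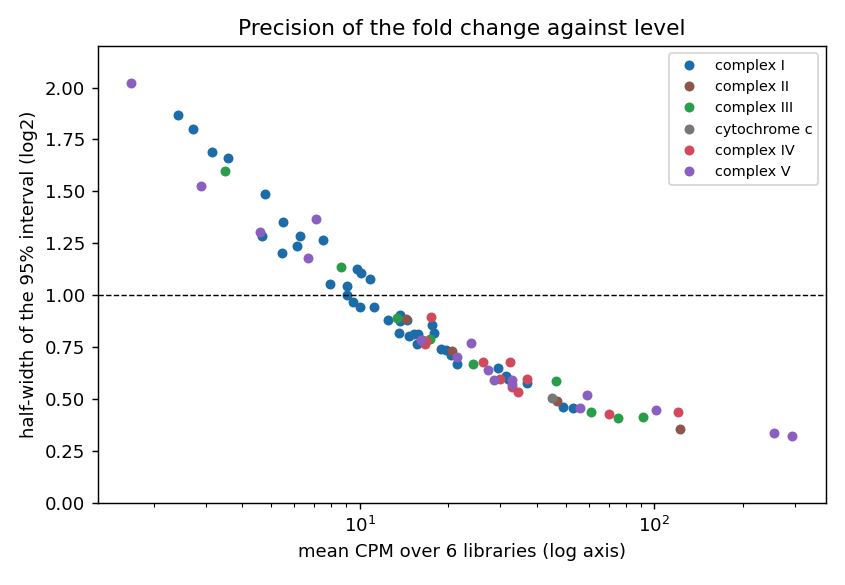
Half-width of the 95% interval of the log2 fold change (vertical axis) against mean CPM over the 6 libraries (horizontal axis, logarithmic) for 84 of the tested members, colored by complex; the dashed line marks a half-width of 1 log2 unit, a 2-fold change. All 12 members above 50 CPM lie well below the line, and those under 10 CPM lie near or above it.

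Nuclear genes of the respiratory chain are known to be driven by NRF1, by ETS factors such as GABP, and by YY1, with coactivators of the PGC-1 family. Ppargc1a, which encodes PGC-1alpha, had no count in any library. Nrf1 stood at 54.4, 48.6 and 63.0 CPM in anti-PD-1 libraries, against 20.3, 54.7 and 57.2 CPM in untreated libraries. Apart from untreated 1 the libraries were alike, and the log2 fold change of Nrf1 of 0.34 became -0.02 without untreated 1. Gabpa, the DNA-binding subunit of GABP, averaged 106 ± 12.5 CPM in anti-PD-1 Tregs and 124 ± 4.40 CPM in untreated Tregs, and Tfam, which packages mitochondrial DNA, 47.9 ± 3.60 and 41.7 ± 4.68 CPM (SD, n = 3 each). Their log2 fold changes were -0.23 and 0.20. Pprc1, a relative of PGC-1alpha, stood at 0.72 ± 0.44, Myc at -0.22 ± 0.30, Esrra at 0.16 ± 0.63 and Ppargc1b at -0.06 ± 0.51 (SE), none of them passing in edgeR.

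RefSeq promoters of the build GRCm38.p6, from 250 bases before to 50 bases after each start, matched 74 of the 94 members and gave 79 promoters. The NRF1 motif (GCGC, any base, then TGCGC), searched on both strands, occurred in 20 of the 79 (25.3%), beside 4.60% of the 32851 promoters in the table. The ETS motif CCGGAAG occurred in 17 (21.5%, beside 8.86%) and the YY1 motif AAGATGGCG in 7 (8.86%, beside 1.40%). Matches to different motifs did not overlap in these promoters, and the comparison did not match promoters for base composition. Both promoters of Ndufa5 overlap and hold the same NRF1 match, so that match counts 2 times, also within complex I. The NRF1 motif was found in 10 of 41 promoters of complex I, 2 of 3 of complex II, 1 of 5 of complex III, 1 of 13 of complex IV and 6 of 16 of complex V. Stretches of 60 bases around the match, in capitals, are shown for some of the members whose values are given above. Others named above with a match, among them Atp5h and Atp5c1, are not shown. The stretches are of Ndufa5 (chr6:24527691-24527750), Sdha (chr13:74350304-74350363), Sdhd (chr9:50603894-50603953), Cox6a1 (chr5:115349086-115349145) and Atp5g2 (chr15:102671055-102671114), all on the minus strand.
Ndufa5: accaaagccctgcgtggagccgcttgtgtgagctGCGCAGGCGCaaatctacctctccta
Sdha: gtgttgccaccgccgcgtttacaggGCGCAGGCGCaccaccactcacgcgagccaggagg
Sdhd: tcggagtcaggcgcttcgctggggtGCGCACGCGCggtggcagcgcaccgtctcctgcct
Cox6a1: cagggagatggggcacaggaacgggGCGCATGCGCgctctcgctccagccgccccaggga
Atp5g2: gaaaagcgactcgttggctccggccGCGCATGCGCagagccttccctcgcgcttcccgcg

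The promoters shown share the motif while the log2 fold changes of their genes ran from -1.28 (Ndufa5) over -0.12 (Sdha), 0.40 (Atp5g2) and 0.50 (Cox6a1) to 0.60 (Sdhd), none passing in edgeR. Atp5h and Atp5c1, not shown, stood at 0.43 and 0.04. A match describes the letters of the window and not binding.

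Other genes that build or feed the respiratory chain gave no call in edgeR either. Of 35 tested assembly factors outside the name pattern, 13 log2 fold changes lay above 0 and 22 below, with a median of -0.10. At an unadjusted edgeR p under 0.05 stood 1 of them (2.86%, beside 8.3% of all genes tested). That was Ecsit, which helps assemble complex I, with 7.58, 10.1 and 8.24 CPM in anti-PD-1 libraries, against 1.28, 3.40 and 5.90 CPM in untreated libraries (log2 fold change 1.30 ± 0.60, SE). Cox15, which makes the heme A of complex IV, came next at 0.93 ± 0.48, and stood at 0.38 without untreated 1 and at 1.62 without untreated 3.

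Of 17 tested genes of the citric acid cycle, which supplies the chain with NADH and succinate, 10 lay above 0 and 7 below, with a median of 0.09. Dld, a subunit shared by pyruvate and 2-oxoglutarate dehydrogenase, had 59.3, 54.8 and 62.4 CPM in anti-PD-1 libraries, against 93.5, 79.7 and 83.3 CPM in untreated libraries. The groups were well apart, and the log2 fold change was -0.54 ± 0.20 (SE) with an edgeR adjusted p of 0.484, which was 0.256 in DESeq2 and 0.934 in edgeR without anti-PD-1 5, the lowest and highest over 11 alternatives. Citrate synthase (Cs) stood at 0.35 ± 0.20. Among 70 tested genes of the mitochondrial ribosome, which translates the subunits encoded in mitochondrial DNA, 41 lay above 0 and 29 below, with a median of 0.11, and Mrpl33 (0.82 ± 0.36) and Mrps15 (1.02 ± 0.45) had the smallest p.

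Among 17 tested regulators of mitochondrial biogenesis, 8 lay above 0 and 9 below. Polg, the polymerase of mitochondrial DNA, had 57.2, 61.3 and 43.1 CPM in anti-PD-1 libraries, against 29.9, 35.0 and 37.3 CPM in untreated libraries. The groups did not overlap, and the log2 fold change of Polg was 0.66 ± 0.25 (SE, edgeR adjusted p = 0.484). Hif1a, the oxygen-regulated transcription factor, averaged 1989 ± 264 CPM in anti-PD-1 Tregs and 2559 ± 213 CPM in untreated Tregs (SD, n = 3 each), a log2 fold change of -0.36 ± 0.14 (SE, edgeR adjusted p = 0.496). Cytosolic ribosomal protein genes gave 62 values above 0 and 30 below over 92 tested, with a median of 0.10. The shares at an unadjusted edgeR p under 0.05 were 5.88% for the citric acid cycle and 4.29% for the mitochondrial ribosome. They were 11.8% for the regulators and 8.70% for cytosolic ribosomal protein genes, beside 8.3% of all genes tested.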

How the data were processed

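RNA of tumor Tregs was measured in 6 libraries (3 anti-PD-1, 3 untreated) made, per the labels' protocols, with the NuGEN Ovation SoLo kit from cells sorted to a purity of over 90%. The deposited table holds unnormalized fragment counts for each gene. The authors made these counts with featureCounts 1.5.2 on the UCSC mm10 annotation, counting read pairs by strand, per the file headers. Other tools named in the submitters' processing notes are bcl2fastq, FastQC and DESeq2. How reads were aligned and duplicates handled is not given in the sources used here. Spreadsheet dates stood in place of 27 symbols, and 1 unnamed column was not used.

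The whole table was fitted with edgeR 4.0.16 (R 4.3.3) after filterByExpr at its defaults (count of 10, total of 15), which kept 10352 genes with 99.8% of the counts. Libraries were scaled by TMM, and treatment was the single term of the robust quasi-likelihood test, which was two-sided. P-values were adjusted by Benjamini-Hochberg across the 10352 genes, with a threshold of 0.05. CPM per kb divides CPM by the gene length in the table. Pairs of libraries differed by a chi-square of 9.84 to 32.1 per degree of freedom, so none was counted as a copy. The pairs with untreated 1 stood at 24.2 to 32.1, and all other pairs at 9.84 to 15.5. Untreated 1 had the most counts (6686774) but the fewest genes detected (11653, against 11848 to 13155 in the other libraries). It held the lowest value of 26 of the 85 tested members and the highest value of 18. Alternatives were DESeq2 1.42.0, limma-voom (limma 3.58.1) with quality weights, RLE scaling, library totals only, no filter, and leaving out each library. The edgeR fit was tested on simulated data with known changes. Shared 50-base stretches were found in GENCODE M21 transcripts, on either strand.

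The members and lists were chosen with earlier results of these data known, so no list was tested as such. Some genes are not reported here. Named were the 4 members of complex I and 2 of each of complexes II to V with the smallest p, the highest by CPM per kb, isoform families, members below the filter, 8 regulators and 2 genes of each other mitochondrial list. The Ndufb group, Ndufs1, Atp5h, members of extreme value and other members beyond this rule were named after their values were seen. Of the other lists, 38 of 45 assembly factors, 18 of 18 citric acid cycle genes, 76 of 76 mitochondrial ribosome genes, 18 of 20 regulators and 102 of 102 cytosolic ribosomal protein genes matched a symbol.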

Additional observations from a re-analysis of the deposited data

How the results depend on the processing

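No paired analysis was possible because the groups share no replicate number. No member passed under any of 11 alternatives to the edgeR fit, nor with the assembly factors, Cox7a2l and cytochrome c left out or Ndufa4 moved to complex IV. The smallest edgeR, DESeq2 or limma-voom adjusted p of a member ranged from 0.262 (no filter) to 0.921 (without anti-PD-1 5). The members' median log2 fold change ranged from -0.09 without anti-PD-1 6 to 0.09 without anti-PD-1 4. Both ends lay within 0.17 of the 0.0096 found with every library. That 0.17 is the SD of the libraries' medians within groups. With a library left out, the median of every complex changed sign, ranging from -0.073 to 0.11 for complex I, -0.026 to 0.22 for II, -0.15 to 0.11 for III, -0.024 to 0.18 for IV (where it was -0.00047 for subunits only) and -0.14 to 0.093 for V. Over the whole table, genes called higher (3 in edgeR) numbered 21 in DESeq2, 8 in limma-voom, 6 with library totals only, 36 with no filter and 1 to 12 with a library left out; genes called lower (0 in edgeR, with 421 at an unadjusted p under 0.05) numbered 13, 4, 1, 16 and 0 to 7 under the same settings.

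Of 46 genes given with a fold change and alternatives, 33 kept their direction in all of them. The other 13 changed sign in at least 1, none past the threshold. With a library left out, the range was -0.059 to 0.54 for Uqcrc1, -0.70 to 0.068 for Cox6c, -0.22 to 0.28 for Ndufa4, -0.29 to 0.20 for Ndufa6, -0.23 to 0.057 for Uqcrh, -0.024 to 0.47 for Cox7a2l, -0.14 to 0.048 for Atp5b, -0.22 to 0.066 for Cycs, -0.48 to 0.36 for Cyc1, -0.011 to 0.21 for Cox7a2, -0.31 to 0.37 for Ppargc1b, -0.017 to 0.58 for Nrf1 and -0.25 to 1.06 for Esrra. In limma-voom the values were -0.069 for Ndufa4, -0.022 for Ndufa6, 0.0027 for Cycs and 0.27 for Ppargc1b; Ndufa6, at 0.0032 in edgeR, was -0.0058 in DESeq2, -0.0074 with RLE scaling and -0.0076 with no filter, and Atp5b was 0.0018 with library totals only. The cause was not tested. Among the members under 10 CPM every interval reached past a 2-fold change on at least 1 side. The variation between libraries beyond counting error, as edgeR estimated it, had a median coefficient of 0.55 in these members. It was 0.18 in those above 50 CPM. What part depth played in the wide intervals was not tested.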
